A study of Arabidopsis thaliana with 8 samples.

Results

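The interaction of genotype and RNase R asks, for each locus, whether digestion of RNA with this exonuclease moved its level differently in the dbr1-2 mutant and in the wild type of Arabidopsis thaliana. It is the difference between libraries with and without RNase R in dbr1-2, minus the same difference in Col-0 (col), on the log2(FPKM + 1) scale. FPKM is fragments per kilobase of transcript, scaled to the mapped fragments of a library. Whether these libraries were also scaled to each other is not given. Loci that reached 1 FPKM in 2 or more of 8 libraries were taken, which gave 14351 of the 32232 loci in the table. Of the 17881 loci left out, 4787 were listed at 0 in all 8 libraries. Just inside the limit, 442 loci had a second-highest value of up to 1.1 FPKM, and 16 of them were called below, while 457 loci just outside had 0.9 FPKM or more. A positive interaction means that a locus kept or gained more of its level in FPKM under RNase R in dbr1-2 than in col, and a negative one the reverse.

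When an intron is spliced out, its start is joined to an adenosine inside it, the branchpoint, and the intron leaves as a lariat, a loop with a tail. DBR1, the lariat debranching enzyme, cuts this bond so that the intron becomes linear and is degraded. RNase R degrades linear RNA from its end, whereas closed RNA, such as a lariat's loop or a circle, resists it, and the series is titled as a study of such RNAs.

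The groups were dbr1-2 with RNase R, dbr1-2 without it, col with RNase R and col without it, with 2 libraries each. All came from inflorescences of plants of the Columbia ecotype, kept at 22 °C under long days, and all were depleted of ribosomal RNA. RNA of the digested groups was treated with RNase R for 2 h at 37 °C. The labels do not say what the dbr1-2 mutation changes in the gene, nor whether replicates were taken from different plants. Within a genotype the sequencing tags carry 1 sample code, so p-values measure a spread that may be technical. DBR1 itself (AT4G31770, chr4:15370061-15372942, minus strand) lay under the filter. Its level was 0.265 and 0.26 FPKM in dbr1-2 with RNase R and 0.339 and 0.43 FPKM in dbr1-2 without it, against 0.202 and 0.188 FPKM in col with RNase R and 0.662 and 0.694 FPKM in col without it. Without RNase R both dbr1-2 libraries were below both col libraries, but the transcript was not at 0.

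The libraries differed in depth and kinship in ways that bear on every result. A single read on 1 kb of transcript was worth 0.0787 to 0.115 FPKM with RNase R and 0.0111 to 0.0134 FPKM without it, so low values are far less precise after digestion. The 2 col libraries with RNase R carry related index sequences in their tags and hardly differed. Over 70 loci whose interval equals 1 annotated gene and with at least 20 reads, their difference was 1.24 times what sampling of reads gives (chi-square per degree of freedom, p = 0.0703), against 7.90 in dbr1-2 with RNase R, 4.32 in dbr1-2 without it and 6.57 in col without it. Over 3427 loci whose read numbers are approximate it was 1.13 (chi-square p = 4.13e-08), against 6.96, 4.00 and 5.98 in the other groups in that order. Over this larger set the 2 col libraries with RNase R thus differed by slightly more than sampling gives, though far less than the other pairs. Because they were so much closer than other replicates, these 2 libraries were averaged and counted as 1 sample. This choice left 7 samples and 3 residual degrees of freedom. Interaction values are the same either way, while their errors and calls differ, and the count with both libraries kept is given beside the first count. Summed markers of floral organs were 25.7 to 26.1 FPKM in dbr1-2 with RNase R and 71.4 to 75.9 FPKM in dbr1-2 without it, against 30.7 to 32.6 FPKM and 71.4 to 73.9 FPKM in the matching col groups. Mature pollen markers differed by genotype, with 3.25 to 5.24 and 5.74 to 6.31 FPKM in dbr1-2, with and without RNase R, against 8.08 to 8.54 and 17.3 to 18.5 FPKM in col, and green tissue markers with 318 to 540 and 1674 to 1758 FPKM in dbr1-2 against 296 to 305 and 1008 to 1211 FPKM in col. No marker of these 3 lists was at 0 in both libraries of a group, while those of root and seed summed to at most 2.38 FPKM, and whether tissue makeup has a part in the interaction was not tested. In such bulk samples, fewer cells of a type and less RNA per cell cannot be told apart.

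Most loci had a lower FPKM with RNase R than without it in both genotypes. FPKM is relative to the other RNAs of a library, and the makeup of libraries differed widely. FPKM summed over loci was 2796449 to 4003096 with RNase R and 295494 to 384482 without it. A lower value is thus a lower level relative to the other RNAs and not a measured loss of that RNA. Rose and fell refer to FPKM throughout. Of the 14351 loci, 12302 were called in dbr1-2 (85.7%), 2202 higher (15.3%) and 10100 lower (70.4%), and 10936 in col (76.2%), 1094 higher (7.62%) and 9842 lower (68.6%). The interaction was called for 1640 loci, 11.4% of those tested, at a limma adjusted p under 0.05 (Benjamini-Hochberg). Of these, 1338 were higher (9.32% of loci tested) and 302 lower (2.1%), so 81.6% of calls were higher. At an unadjusted p under 0.05 there were 3936 (27.4%). With both col libraries with RNase R counted, 1973 were called, 1544 higher and 429 lower, and 1261 and 260 of the calls above were among them. The median interaction over all tested loci was 0.01 on the log2 scale, with median RNase R differences of -0.69 in dbr1-2 and -0.66 in col. Loci called higher had a median interaction of 1.08, with 776 at 1 or more, 119 at 2 or more and 21 at 3 or more, while those called lower had a median of -0.76, with 65, 8 and 1 at the matching sizes below 0.

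The count depends on which libraries enter, and on which groups then give the error. Without a library of dbr1-2 with RNase R, no digested group has a spread, since the col pair enters as its mean. The error then rests on the groups without RNase R alone, so such counts cannot be set beside the others. Without 1 library of dbr1-2 with RNase R, 4019 (replicate 1 left out) or 4138 loci (replicate 2 left out) were called, and without 1 library of dbr1-2 without RNase R, 581 or 479. Without 1 library of col without RNase R, 423 or 434 were called. In all 8 such fits, 347 of the loci called higher and 19 of those called lower were called in the same direction. The sequencing tag of replicate 1 of dbr1-2 with RNase R names removal of ribosomal RNA alone, where the other tags also name mRNA, and without it the split was 2267 higher and 1752 lower. Tags also give a year, which is the earlier of a pair of years for both libraries of dbr1-2 with RNase R and the later for both of col with RNase R. No year holds all 4 groups, so there is no value within a year, and year and interaction can be told apart only through the libraries without RNase R, 1 of each year in both genotypes. With year as a covariate, 325 loci were higher and 28 lower. The split was 1260 higher and 1006 lower with quantile normalization over the same loci. It was 769 and 519 with TPM and 672 and 467 with organelle and ribosomal RNA loci removed, where 17428 and 18848 loci passed the filter, so that scaling and the loci tested changed together. Under the deposited values and 4 other scalings alike, 347 loci were higher and 54 lower, and with year as well, 202 and 16.

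**Figure D1:**
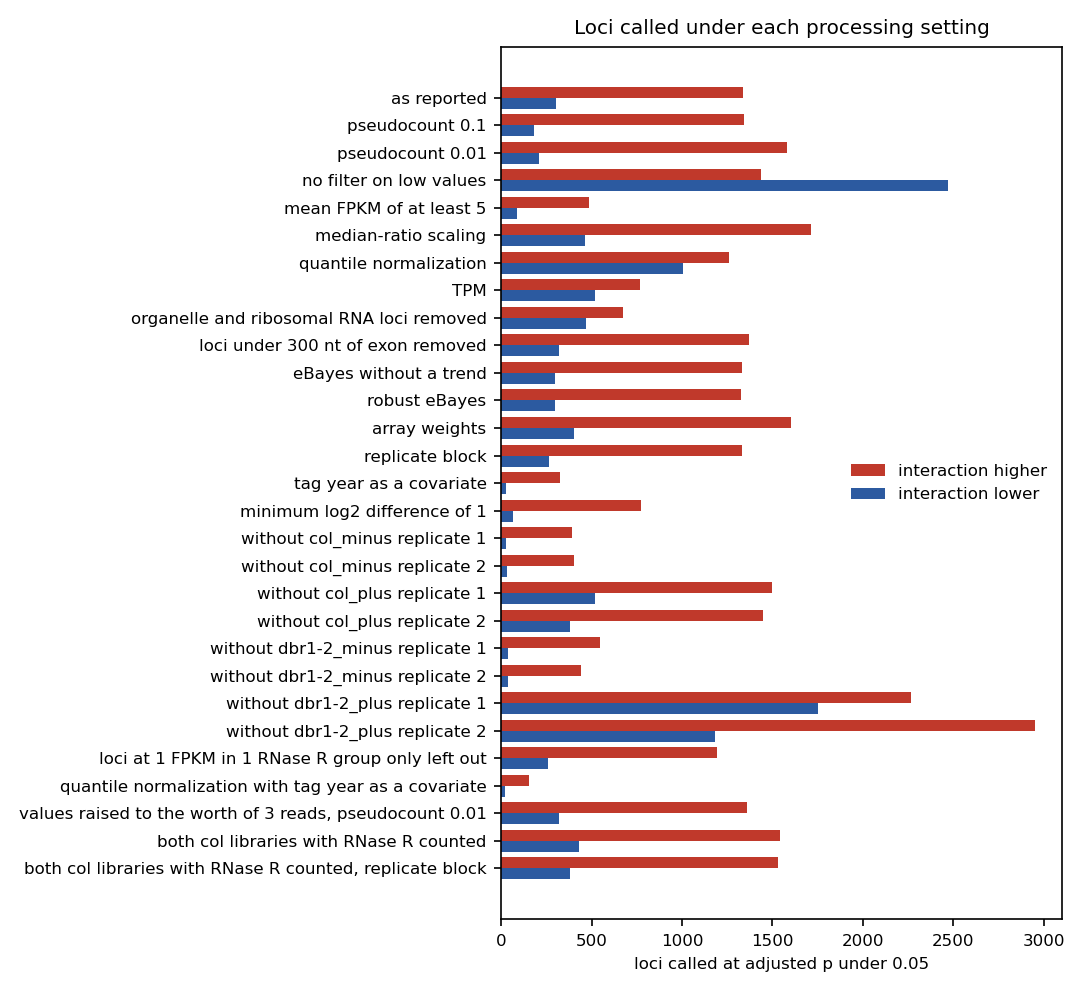
Loci called with a higher (red) or lower (blue) interaction, on a linear axis that starts at 0, under the reported setting (top) and each alternative; plus and minus in the labels stand for with and without RNase R. Higher calls outnumber lower ones in all settings shown except with no filter on low values, where 1435 were higher and 2474 lower.

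A higher interaction came about in several ways. Among the 1338 loci, 310 rose with RNase R in both genotypes, 482 rose in dbr1-2 and were not called in col, and 257 rose in dbr1-2 and fell in col. Another 151 fell in col and were not called in dbr1-2, and 138 fell in both. Their median level was 6.19 FPKM in dbr1-2 with RNase R and 2.50 FPKM in dbr1-2 without it, against 1.88 FPKM in col with RNase R and 2.19 FPKM in col without it. The 2 groups without RNase R thus lay close together. Their median log2 difference, dbr1-2 minus col, was 0.12, against 0.13 over all tested loci. The gap after digestion is largely set by the choice of loci through the interaction. Among the 302 loci called lower, 156 fell in both genotypes, 93 fell in dbr1-2 and were not called in col, 28 rose in both, 17 rose in col and were not called in dbr1-2, and 8 fell in dbr1-2 and rose in col. Their medians were 0.89 FPKM in dbr1-2 with RNase R and 3.35 FPKM in dbr1-2 without it, against 1.33 FPKM and 1.90 FPKM in the matching col groups. The filter favours loci that are high after digestion in 1 genotype: 185 loci passed it only through dbr1-2 with RNase R, of which 114 were called higher, and 27 only through col with RNase R, of which 10 were called lower.

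**Figure D2:**
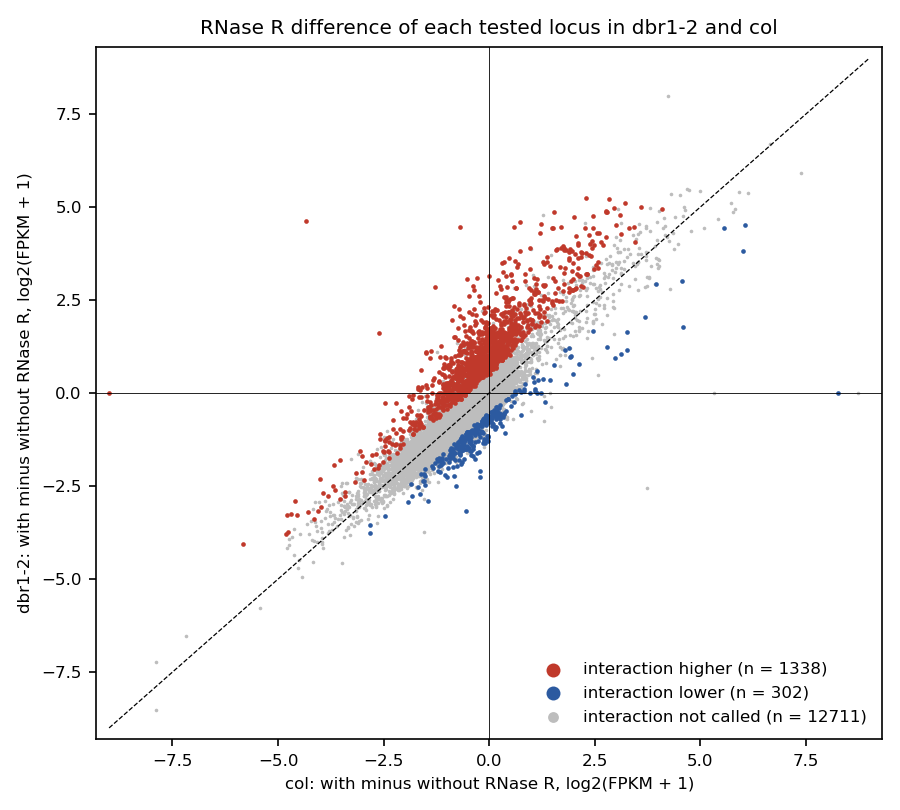
Difference between libraries with and without RNase R in dbr1-2 (vertical) and in col (horizontal), log2(FPKM + 1), 1 point per tested locus, with differences beyond 9 drawn at 9. Loci on the dashed line moved equally; the 1338 called higher lie above it and the 302 called lower below it.

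The 15 protein-coding genes with the largest positive interactions, among those called with a mean of at least 5 FPKM and 300 nt of exon, have varied products, and no list covers them as a group. All 15 rose with RNase R in dbr1-2, while in col 7 rose, 3 fell and 5 were not called. Leaving AT4G03360 aside, the dbr1-2 libraries with RNase R lay at 21.2 to 262 FPKM and those without it at 1.88 to 28.1 FPKM, against 0.417 to 13.2 FPKM in col with RNase R and 0.266 to 17.7 FPKM in col without it. The genes were ranked by the interaction, and some reach the mean over 8 libraries only through digested dbr1-2. The height of that group is therefore largely set by the choice of genes. Genes picked for large interactions also keep their calls more easily. Of all 1338 loci called higher, 319 stayed so with tag year as a covariate. Of the 15, 12 were called under every one of 28 alternatives, 14 with tag year as a covariate, 8 overlap another annotated gene and 7 share their interval in the table, so reads of those may have been divided.

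ADF11 (AT1G01750, chr1:275188-276310, plus strand) encodes an actin depolymerizing factor, a small protein that severs actin filaments. It had 79.1 and 85.8 FPKM in dbr1-2 with RNase R and 2.29 and 2.65 FPKM in dbr1-2 without it, against 1.24 and 1.01 FPKM in col with RNase R and 0.295 and 0.266 FPKM in col without it. The digested dbr1-2 libraries are far above all others, and dbr1-2 exceeds col before digestion as well. Its interaction was 3.86 (SE 0.15, limma adjusted p = 0.000383) and it overlaps 2 genes on the other strand. ARPC1B (AT2G31300, chr2:13345977-13350004, minus strand) encodes a subunit of the ARP2/3 complex, which starts branched actin filaments. Its levels were 34.2 and 33.9 FPKM in dbr1-2 with RNase R and 2.31 and 1.91 FPKM in dbr1-2 without it, against 1.91 and 1.14 FPKM in col with RNase R and 0.976 and 1.06 FPKM in col without it (interaction 3.19, SE 0.15, adjusted p = 0.000608). The digested dbr1-2 libraries are far above the other 6, which lie within 0.976 to 2.31 FPKM. Among these, dbr1-2 without RNase R was also above col without it, by 0.62 on the log2 scale (adjusted p = 0.0074).

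DER1 (AT4G29330, chr4:14444553-14447237, plus strand), annotated as DERLIN-1, a family that helps to move misfolded proteins out of the reticulum, had 110 and 121 FPKM in dbr1-2 with RNase R and 8.25 and 6.36 FPKM in dbr1-2 without it, against 6.01 and 9.36 FPKM in col with RNase R and 3.92 and 4.37 FPKM in col without it (interaction 3.09, SE 0.21, adjusted p = 0.0018). Both genotypes rose, dbr1-2 by 3.82 and col by 0.73 on the log2 scale. AT4G04200 (chr4:2027165-2029013, plus strand), annotated as a microsomal signal peptidase subunit, had 38.4 and 21.2 FPKM in dbr1-2 with RNase R and 3.09 and 1.96 FPKM in dbr1-2 without it, against 1.7 and 2.06 FPKM in col with RNase R and 2.66 and 2.33 FPKM in col without it (interaction 3.37, SE 0.45, adjusted p = 0.00744). Its 2 digested dbr1-2 libraries differ most among these genes, and with tag year as a covariate the adjusted p was 0.0676. VPS60.2 (AT5G04850, chr5:1407940-1409935, minus strand), of the SNF7 family that shapes endosomal membranes, had 31.5 and 39.1 FPKM in dbr1-2 with RNase R and 4.85 and 3.89 FPKM in dbr1-2 without it, against 1.48 and 1.97 FPKM in col with RNase R and 2.44 and 2.57 FPKM in col without it (interaction 3.12, SE 0.22, adjusted p = 0.00183). In col it was not called, with a difference of -0.37.

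TOE2 (AT5G60120, chr5:24207689-24211743, plus strand), a transcription factor that represses flowering and a target of the microRNA miR172, had 44.6 and 43.4 FPKM in dbr1-2 with RNase R and 2.76 and 2.92 FPKM in dbr1-2 without it, against 2.99 and 3.28 FPKM in col with RNase R and 1.78 and 1.68 FPKM in col without it. The replicates lie close together, and the interaction was 2.95 (SE 0.13, adjusted p = 0.000517). AT5G64160 (chr5:25670930-25672710, plus strand), whose product is annotated only as a plant protein, had the highest digested level of the 14 genes, 247 and 262 FPKM in dbr1-2 with RNase R and 7.76 and 7.85 FPKM in dbr1-2 without it, against 10.5 and 13.2 FPKM in col with RNase R and 3.54 and 3.32 FPKM in col without it (interaction 3.33, SE 0.13, adjusted p = 0.000383). It overlaps a gene on either side, both on the other strand. AT4G20320 (chr4:10974456-10979627, plus strand), a CTP synthase, and AT4G20330 (chr4:10982517-10984521, minus strand), annotated as the beta subunit of the transcription factor TFIIE, are neighbours on opposite strands. The first had 123 and 161 FPKM in dbr1-2 with RNase R and 28.1 and 25.5 FPKM in dbr1-2 without it, against 9.11 and 9.96 FPKM in col with RNase R and 17.7 and 17.6 FPKM in col without it, and the second 42.9 and 41.9 FPKM and 6.17 and 6.02 FPKM in those dbr1-2 groups, against 2.84 and 2.92 FPKM and 4.33 and 4.41 FPKM in those of col. Both rose with RNase R in dbr1-2 and fell in col, where their log2 differences were -0.82 and -0.47.

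Of the others, AT1G23440, a pyroglutamyl peptidase-like protein (interaction 3.24, SE 0.26), AT4G27620, annotated as an intracellular protein transporter (3.18, SE 0.14), AT3G13440, of a methyltransferase superfamily (3.15, SE 0.18), and AT1G60990, of the glycine cleavage T-protein family (2.97, SE 0.15), all had adjusted p-values of at most 0.00211. AT5G57970, of a DNA glycosylase superfamily, had 49.3 and 52.6 FPKM in dbr1-2 with RNase R and 3.05 and 3.34 FPKM in dbr1-2 without it, against 7.47 and 0.417 FPKM in col with RNase R and 1.38 and 1.66 FPKM in col without it. The 2 col libraries with RNase R disagree for this gene, and its interaction of 3.17 was not called when both were counted. AT4G03360 (chr4:1474869-1475968, minus strand), a ubiquitin family protein with no annotated intron, led in size, with 23340 and 27141 FPKM in dbr1-2 with RNase R and 934 and 1376 FPKM in dbr1-2 without it, against 111 and 111 FPKM in col with RNase R and 87.5 and 371 FPKM in col without it. Its interaction was 5.17 (SE 0.98, adjusted p = 0.0237), but it shares its interval with other loci and was not called with quantile normalization (adjusted p = 0.18), so which transcript gave these reads is uncertain.

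**Figure D3:**
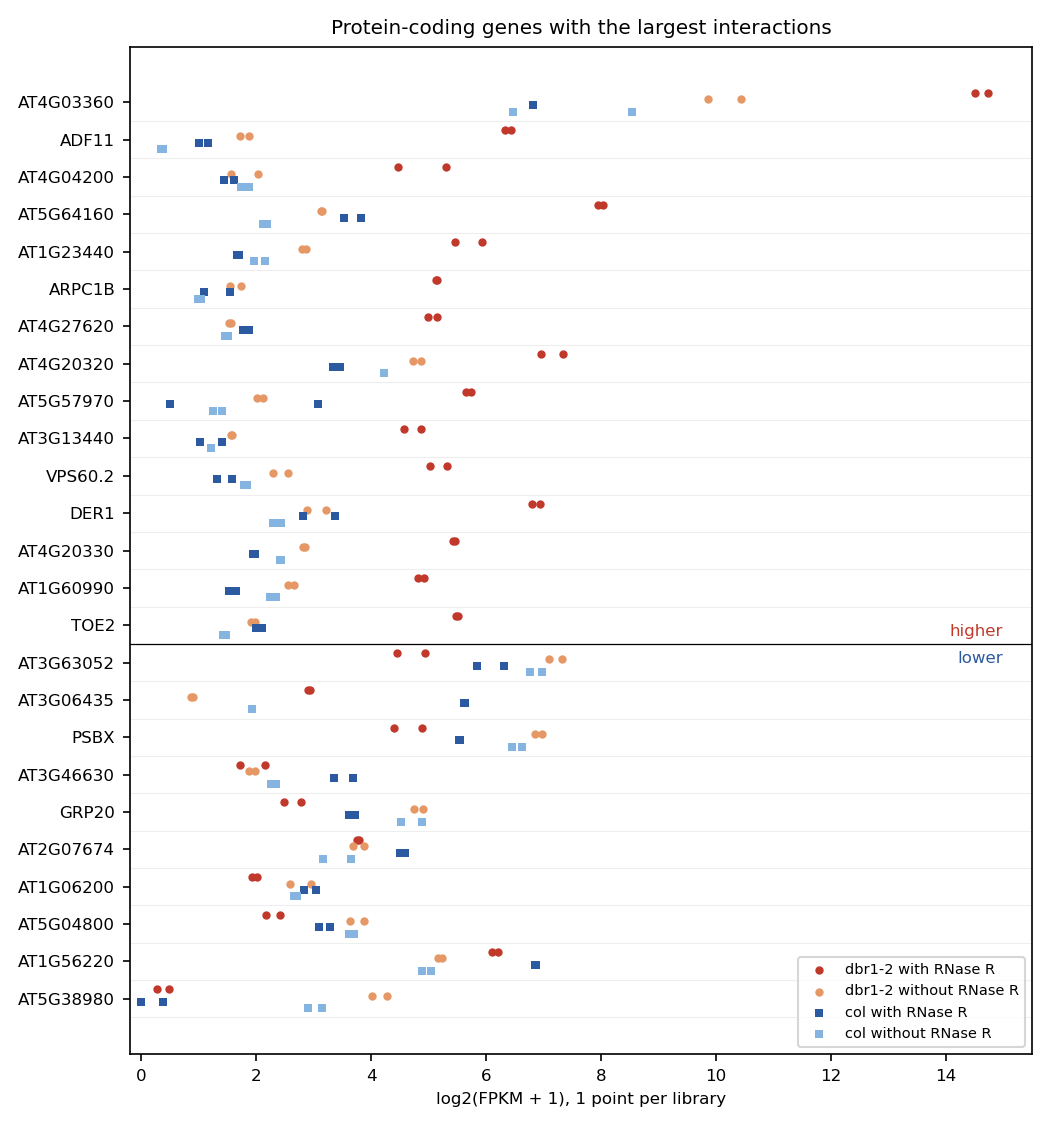
Level of the 15 protein-coding genes with the largest positive interactions (above the line) and the 10 with the largest negative ones (below it), log2(FPKM + 1), 1 point per library, dbr1-2 as circles and col as squares. In the upper genes other than AT4G03360 the digested dbr1-2 libraries lie at 21.2 to 262 FPKM, to the right of the other 6. The choice of genes by interaction favours this.

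The ends of introns are shown for the first 6 of these genes that have an intron of at least 60 nt outside every annotated exon, because lariats keep the intron and its branchpoint. Each line gives the last 60 bases of the longest such intron, 5′ to 3′ on the gene's strand, read from the TAIR10.1 assembly of RefSeq, with the closing AG in capitals. The branchpoint-like motif CTNAN is also in capitals where its A lies 15 to 50 nt before the intron's last base, and where there are several only the one nearest the end is marked. All 6 introns begin with GT. AT4G04200 is from chr4:2028468-2028527, AT5G64160 from chr5:25671811-25671870, AT1G23440 from chr1:8323599-8323658, ARPC1B from chr2:13349352-13349411, AT4G27620 from chr4:13790562-13790621 and AT4G20320 from chr4:10977465-10977524.
AT4G04200: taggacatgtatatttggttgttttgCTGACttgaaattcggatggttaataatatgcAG
AT5G64160: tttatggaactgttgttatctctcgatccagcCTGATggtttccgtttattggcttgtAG
AT1G23440: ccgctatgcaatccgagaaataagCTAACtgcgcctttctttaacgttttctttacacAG
ARPC1B: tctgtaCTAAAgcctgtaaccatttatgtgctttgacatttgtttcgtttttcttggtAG
AT4G27620: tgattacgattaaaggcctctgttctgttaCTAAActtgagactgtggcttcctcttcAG
AT4G20320: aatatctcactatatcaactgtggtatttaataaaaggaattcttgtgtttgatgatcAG

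Of these 6, 5 hold the motif in that window. Over the longest intron of each gene, 64.2% of 1069 genes called higher held it, as did 58.8% of 221 called lower and 62.5% of all 11885 tested protein-coding genes with an intron of at least 60 nt, so the motif did not set the called genes apart. The search covered the transcribed strand only. VPS60.2 also has an intron of 111 nt (chr5:1408710-1408820, minus strand) that another of its annotated transcripts keeps as coding exon. Reads from this intron count towards the gene only if the deposited FPKM used that exon, which is not given. It is shown whole, with the same capitals.
VPS60.2: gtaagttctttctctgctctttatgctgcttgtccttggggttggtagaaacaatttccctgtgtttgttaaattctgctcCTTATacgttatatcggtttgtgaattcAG

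Negative interactions were smaller. Among protein-coding genes called lower with a mean of at least 5 FPKM and 300 nt of exon, no product name is common to the 10 largest, of which 4 have no annotated intron. Loci below these limits, not described here, reach larger values. The 10 ran from -1.71 to -0.94, and with RNase R 6 of the 10 genes fell in dbr1-2, 2 rose and 2 were not called, while in col 5 fell, 4 rose and 1 was not called. AT3G63052 (chr3:23298729-23299126, minus strand), a small protein of unknown role, had 29.5 and 20.9 FPKM in dbr1-2 with RNase R and 135 and 158 FPKM in dbr1-2 without it, against 56 and 78.2 FPKM in col with RNase R and 108 and 124 FPKM in col without it (interaction -1.71, SE 0.29, adjusted p = 0.0155). The interval of its locus, chr3:23298911-23299111, is shorter than the 300 nt of exon asked for, which came from the annotation. The FPKM of so short a locus is uncertain. AT3G63052 fell in both genotypes, further in dbr1-2. PSBX (AT2G06520), a small subunit of photosystem II, was alike, with 28.5 and 20.1 FPKM in dbr1-2 with RNase R and 115 and 124 FPKM in dbr1-2 without it, against 45 and 45.8 FPKM in col with RNase R and 86.2 and 97.8 FPKM in col without it (interaction -1.27, SE 0.27, adjusted p = 0.0335). GRP20, a glycine-rich protein of the pollen coat, also fell in both genotypes (interaction -1.15, SE 0.26, adjusted p = 0.0393).

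The remaining genes differed in how they moved. AT1G56220, of the dormancy and auxin associated family, had 72.9 and 67.8 FPKM in dbr1-2 with RNase R and 34.7 and 36.5 FPKM in dbr1-2 without it, against 115 and 116 FPKM in col with RNase R and 28.5 and 31.8 FPKM in col without it (interaction -0.94, SE 0.15, adjusted p = 0.0147). AT3G46630, annotated as a DCL protein with a domain of unknown function, rose in col to 9.19 and 11.8 FPKM, against 3.75 and 4.1 FPKM without RNase R, and was not called in dbr1-2, where it had 3.45 and 2.3 FPKM with RNase R and 2.93 and 2.68 FPKM without it (interaction -1.2, SE 0.24, adjusted p = 0.0262). AT2G07674 rose in col and was not called in dbr1-2 (interaction -1.14), AT1G06200 fell in dbr1-2 and was not called in col (-1.06), and AT5G04800 fell in both (-1.0). AT2G07674 shares the long interval chr2:3268714-3404046 with other loci, so which of them gave its reads is uncertain. It lost the call under 11 of 28 alternatives. AT5G38980 fell in both and was called by a small margin (-0.94, adjusted p = 0.0489), with 0.205 and 0.397 FPKM in dbr1-2 with RNase R and 0 and 0.303 FPKM in col with RNase R, levels of a few reads, and its sign changed with a pseudocount of 0.01. Of the 10 genes, only AT3G06435 was called under all 28 alternatives, and only it with tag year as a covariate.

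AT3G06435 (chr3:1968288-1970946, minus strand), a protein of unknown role, has 1 annotated intron of 1070 nt that an exon of another transcript covers. It had 6.67 and 6.49 FPKM in dbr1-2 with RNase R and 0.818 and 0.871 FPKM in dbr1-2 without it, against 48.5 and 48.1 FPKM in col with RNase R and 2.78 and 2.81 FPKM in col without it (interaction -1.66, SE 0.12, adjusted p = 0.00183). It rose in both genotypes, by 2.04 in dbr1-2 and 3.70 in col, and was lower in dbr1-2 before digestion too. A second locus with this name lies on the other strand of the interval and had 14.9 and 17.8 FPKM in dbr1-2 with RNase R and 0.182 and 0.252 FPKM in dbr1-2 without it, against 131 and 136 FPKM in col with RNase R and 0.857 and 1.38 FPKM in col without it (interaction -2.17, SE 0.23, adjusted p = 0.00397). Both loci rose in both genotypes, more in col, but the interaction of the second was -1.11 (adjusted p = 0.132) with a pseudocount of 0.1 and -0.74 (adjusted p = 0.33) with values raised to the worth of 3 reads. Its undigested levels are low, and the sources used here do not say if reads were assigned by strand.

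A pair of loci without a gene name showed the same picture of a gain in both genotypes that was larger in col. The first, at chr1:29427879-29428506, lies on the inferred minus strand between GRF13, whose end is 697 nt away, and AT1G78230, 1545 nt away. It had 1549 and 1635 FPKM in dbr1-2 with RNase R and 65.8 and 70.8 FPKM in dbr1-2 without it, against 3550 and 3637 FPKM in col with RNase R and 48.5 and 58.6 FPKM in col without it (interaction -1.52, SE 0.20, adjusted p = 0.00718). The second, at chr3:10032169-10038207 between AT3G27180 and UKL2, had 18.9 and 17.4 FPKM in dbr1-2 with RNase R and 1.42 and 1.29 FPKM in dbr1-2 without it, against 65.8 and 66.8 FPKM in col with RNase R and 1.93 and 1.73 FPKM in col without it (interaction -1.55, SE 0.14, adjusted p = 0.00288). Neither interval overlaps an annotated gene of TAIR10.1, and no sequence of them is shown because the file does not say which bases are transcribed. The chloroplast gene rps18, for a ribosomal protein, likewise rose in both, to 2963 and 2732 FPKM in dbr1-2, against 395 and 354 FPKM without RNase R, and to 5713 and 5857 FPKM in col, against 380 and 369 FPKM without it (interaction -1.02, SE 0.20, adjusted p = 0.0248, and 0.24 with quantile normalization). ATMG00050 of the mitochondrion fell in both (interaction -0.94, SE 0.17, adjusted p = 0.0208) and was not called when both col libraries with RNase R were counted.

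Among other loci with positive interactions, AT1G25098 (chr1:8812695-8815264, plus strand), a long non-coding RNA that overlaps AT1G25097 and AT1G25112, 1 on each strand, had 125 and 89.4 FPKM in dbr1-2 with RNase R and 18.5 and 10.2 FPKM in dbr1-2 without it, against 3.95 and 3.48 FPKM in col with RNase R and 11.8 and 9.27 FPKM in col without it (interaction 4.14, SE 0.46, adjusted p = 0.00433). It rose in dbr1-2 and fell in col. The chloroplast gene psbA, for the D1 protein of photosystem II, was listed at 0 in 6 libraries and had 10159 and 12106 FPKM in both col libraries without RNase R. Such a 0 can be a failed estimate, so its value is not read as a difference.

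Loci that lie on the other strand from their namesake gene were called higher more often than loci overall. Of 311 such nuclear loci tested, 123 were higher (39.5%, against 9.32% of all loci) and 4 lower. Their strand is inferred from the numbering of loci, all 311 share their interval with other loci, and 21 passed the filter only through dbr1-2 with RNase R. Those called higher had a median of 14.2 FPKM in dbr1-2 with RNase R and 0.625 FPKM in dbr1-2 without it, against 3.51 FPKM in col with RNase R and 0.298 FPKM in col without it. Before digestion they were thus under 1 FPKM in the median in both genotypes. The locus opposite the cyclin gene AT1G70210 had 171 and 125 FPKM in dbr1-2 with RNase R and 6.04 and 4.59 FPKM in dbr1-2 without it, against 10.6 and 9.98 FPKM in col with RNase R and 5.3 and 2.74 FPKM in col without it (interaction 3.34, SE 0.43, adjusted p = 0.00711). Those opposite AT4G14720 (interaction 3.88, SE 0.43) and the receptor kinase gene AT4G23270 (3.09, SE 0.30) were also among the 5 largest of other loci. The first had 3.22 and 0 FPKM in the col libraries with RNase R and was not called with values raised to the worth of 3 reads (adjusted p = 0.0573), and the second was not called with a pseudocount of 0.1 (adjusted p = 0.0958) or 0.01 (adjusted p = 0.475). For 109 of the 123 the locus on the gene's own strand was tested too, and in 2 cases it was also called higher. With a pseudocount of 0.1 the share fell to 14.5%, against 9.37% of all loci, with values raised to the worth of 3 reads it was 18.1%, against 9.62%, and with tag year as a covariate 13.8%, against 2.26%.

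Among nuclear protein-coding genes, the share called higher followed the length of the longest annotated intron. It was 2.99% of 1372 genes with no intron, 1.76% of 740 with a longest intron of up to 100 nt and 2.12% of 1983 with one above that and up to 200 nt. It was 10.3% of 4525 genes with one above 200 and up to 400 nt, 11.6% of 4018 with one above that and up to 800 nt and 13.9% of 916 with a longer one. All of these stand against 8.51% of the 13554 protein-coding genes tested. The share called lower was 3.43% of genes without introns and, in the same order of length, 3.38%, 2.32%, 1.75%, 1.42% and 1.97%, so it was lowest in the class up to 800 nt and not in the longest. Of the 1153 protein-coding genes called higher, 1057 have a longest intron over 200 nt, as do 9459 of the 13554 tested.

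**Figure D4:**
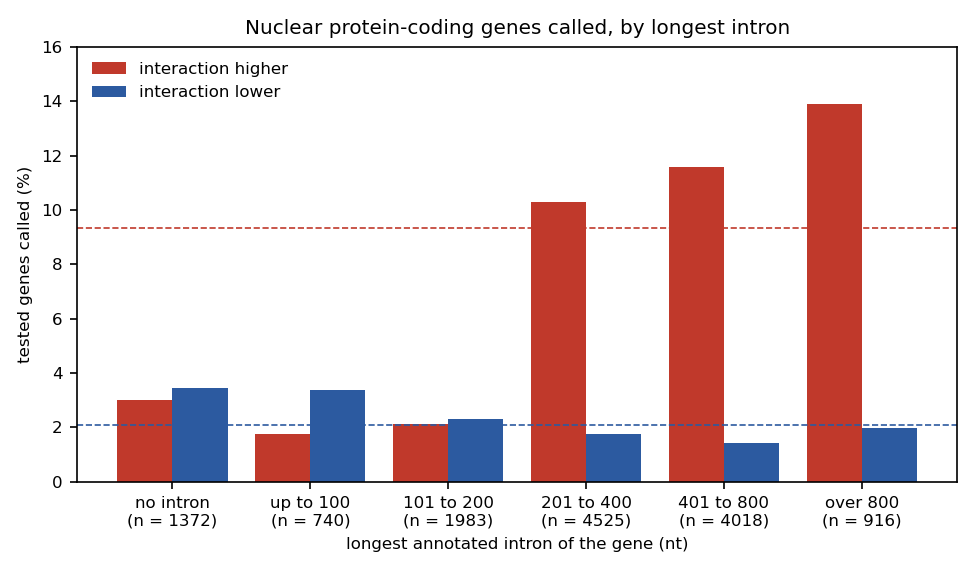
Share of tested nuclear protein-coding genes called with a higher (red) or lower (blue) interaction, by longest annotated intron, with the shares over all tested loci, 9.32% and 2.1%, as dashed lines. The red bars are at 1.76% to 2.99% up to 200 nt and at 10.3% to 13.9% above it.

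The split at 200 nt was also seen within classes that differ in other ways. The design named the longest intron without this cut, which pools the classes above, so the same calls are divided again here. In 4 classes of equal size from low to high mean level, 4.77%, 8.28%, 13.1% and 16.7% of genes with a longest intron over 200 nt were called higher, against 2.42%, 1.64%, 1.2% and 2.79% of those with one of up to 200 nt. That mean is over all 8 libraries, digested dbr1-2 among them, so the climb with level is partly built into these classes. By number of introns the shares were 4.21%, 12.4%, 11.8% and 11.3% for genes with 1, 2 to 4, 5 to 9 and 10 or more introns and a longest one over 200 nt, against 2.69%, 2.27%, 1.18% and 1.93% for the shorter. In 4 such classes from short to long exon length they were 9.65%, 11.3%, 12.7% and 10.8%, against 3.53%, 1.38%, 1.85% and 1.29%. With tag year as a covariate, 2.65% against 0.367% were called higher, and with quantile normalization 10.2% against 2.68%. These shares describe genes that share libraries, and carry no test.

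FPKM per gene counts reads in exons, so an intron can add to it where an exon of another transcript of the gene covers it. Introns that lie wholly within such an exon were counted here, while those that an exon covers in part, as in AT1G23440 and ARPC1B, were not. Exons are those of the TAIR10.1 annotation, and whether the deposited FPKM used the same ones is not given. Of 3942 tested genes with such an intron 11.6% were called higher, against 7.96% of 8240 genes with introns but none so covered. By covered length the share was 7.75% for up to 100 nt, 7.88% above that and up to 200 nt, 13.4% above 200 and up to 400 nt and 17.9% for more. The split by longest intron was seen in both kinds. Among genes with a longest intron over 200 nt, 13.9% with a covered intron and 9.83% without one were called higher, and among those with shorter introns 2.40% and 1.86%. So 620 of the 1153 protein-coding genes called higher have a longest intron over 200 nt and no intron wholly within an annotated exon, some of them with introns covered in part, and the notes name the build only as TAIR10. Outside protein-coding genes, and against 9.32% of all loci, 12 of 39 transcribed pseudogenes (30.8%), 9 of 55 other pseudogenes (16.4%), 11 of 81 long non-coding RNAs (13.6%), 8 of 53 other non-coding RNAs (15.1%) and 3 of 13 microRNA loci (23.1%) were higher. Of chloroplast genes 7 of 68 were higher (10.3%) and 3 lower, and of mitochondrial genes 2 of 68 were higher (2.94%) and 5 lower. The 7 include psbA, whose value is not read as a difference. Of 55 unnamed nuclear loci 8 were higher (14.5%) and 9 lower (16.4%, against 2.1% of all loci).

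Of 14 gene lists with members tested, the splicing regulators held the most calls. The lists and their members were chosen with earlier results of these data known, so their shares are descriptive and no independent support. Among 25 tested SR proteins and splice site factors, 6 were higher (24.0%, against 9.32% of all loci) and 1 lower (against 2.1% of all loci), with a median of 0.07 against 0.01 over all loci. SCL30A, an SC35-like splicing factor, had 28.1 and 19.4 FPKM in dbr1-2 with RNase R and 4.38 and 5.04 FPKM in dbr1-2 without it, against 7.09 and 6.52 FPKM in col with RNase R and 6.1 and 6.33 FPKM in col without it (interaction 1.98, SE 0.27, adjusted p = 0.00822). It rose in dbr1-2 and was not called in col. U2AF65A, the large subunit of the factor that binds the end of the intron, showed the other form, with 7.7 and 5.86 FPKM in dbr1-2 with RNase R and 7.81 and 7.59 FPKM in dbr1-2 without it, against 1.56 and 1.86 FPKM in col with RNase R and 8.91 and 8.23 FPKM in col without it (interaction 1.65, SE 0.20, adjusted p = 0.00572). RS31 was alike, with 4.87 and 4.45 FPKM in dbr1-2 with RNase R and 5.01 and 4.79 FPKM in dbr1-2 without it, against 1.46 and 1.3 FPKM in col with RNase R and 4.65 and 4.49 FPKM in col without it (interaction 1.17, SE 0.13, adjusted p = 0.00465). Both fell in col and were not called in dbr1-2. RS40 rose in both genotypes, more in dbr1-2 (interaction 1.24, SE 0.19), RSZ32 and RS41 had interactions of 1.71 (SE 0.33) and 1.24 (SE 0.20), and RSZ21 was lower (-0.59, SE 0.13). With tag year as a covariate SCL30A, U2AF65A, RS31 and RS40 had adjusted p-values of 0.0599, 0.0588, 0.0522 and 0.0933. Over all alternatives SCL30A lost the call under 4 of 28, U2AF65A under 2 of 28, RS31 under 4 of 27 and RS40 under 7 of 28. RSZ32, RS41 and RSZ21 were not followed through the alternatives. Of 18 tested genes of the spliceosome core, disassembly and debranching, U1C alone was called (1.17, SE 0.26, adjusted p = 0.0375), and it lost the call under 10 of 27 alternatives.

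Among 42 tested microRNA targets 3 were higher and 1 lower, close to the 9.32% and 2.1% of all loci. Besides TOE2, the flowering regulator SPL15 had 5.85 and 4.69 FPKM in dbr1-2 with RNase R and 1.84 and 2.01 FPKM in dbr1-2 without it, against 0.759 and 0.766 FPKM in col with RNase R and 1.63 and 2.09 FPKM in col without it (interaction 1.79, SE 0.20, adjusted p = 0.00463). It rose in dbr1-2, fell in col, and overlaps a gene on the other strand. SPL4, of the same family, fell in both, less in dbr1-2 (0.86, SE 0.14), and PHV, a leaf polarity factor, was lower (-0.81, SE 0.13). In the small RNA machinery and in RNA decay the counts were below the 9.32% of all loci. In the small RNA machinery 1 of 23 genes was called, DCL1, which cuts microRNA precursors (0.68, SE 0.13, adjusted p = 0.0225). In RNA decay and surveillance 1 of 19 was, RRP6L1, an exosome-related nuclease, with 5.07 and 4.66 FPKM in dbr1-2 with RNase R and 2.14 and 2.03 FPKM in dbr1-2 without it, against 0.975 and 1.27 FPKM in col with RNase R and 1.96 and 1.94 FPKM in col without it (interaction 1.40, SE 0.13, adjusted p = 0.00297). RRP6L1, TOE2 and SPL15 were called under all alternatives in which they were tested, while SPL4, PHV and DCL1 each lost the call under 9, tag year among them.

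The actin list had 2 higher members of 28, ADF11 and ARPC1B, and 2 lower, ADF9 and PRF1, where 9.32% of all loci were higher and 2.1% lower. PRF1 (-0.58, SE 0.14, adjusted p = 0.0495) lost the call under 19 of 28 alternatives, and ADF9 (-0.80, SE 0.13) under 9 of 27. Of 11 reference genes used for normalization of transcript levels, UBC21 was higher, with 9.85 and 8.16 FPKM in dbr1-2 with RNase R and 6.06 and 5.89 FPKM in dbr1-2 without it, against 3.19 and 2.75 FPKM in col with RNase R and 5.25 and 4.69 FPKM in col without it (interaction 1.1, SE 0.17, adjusted p = 0.0129). Of 20 photosynthesis genes of the nucleus PRK, an enzyme of the Calvin cycle, was higher (1.17, SE 0.26, adjusted p = 0.04), and the list's median was -0.19. UBC21 lost the call under 8 alternatives and PRK under 10. Of 18 stress genes COR15A was higher (0.88, SE 0.14) and RAB18, ELIP2 and HSP90.1 were lower, against 9.32% higher and 2.1% lower over all loci. HSP90.1 (-0.63, SE 0.15) lost the call under 15 of 27 alternatives, COR15A under 9 of 28 and ELIP2 under 3 of 27. In col, HSP90.1 had 0.156 and 0.204 FPKM with RNase R and 0.341 and 0.236 FPKM without it. ELIP2 had 0.728 and 0.191 FPKM and 0.849 and 0.557 FPKM in those col groups. Both thus had little room to fall in col on this scale. With a pseudocount of 0.1 HSP90.1 was not called (limma adjusted p = 0.184), while ELIP2 was (0.0449). RAB18, a dehydrin, had 2.28 and 2.33 FPKM in dbr1-2 with RNase R and 7.81 and 7.87 FPKM in dbr1-2 without it, against 0.133 and 0.174 FPKM in col with RNase R and 0.488 and 0.507 FPKM in col without it. Its interaction of -1.04 became -0.48 (adjusted p = 0.158) with a pseudocount of 0.1, and in col with RNase R its level is that of a few reads.

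No member was called in 5 lists, where 11.4% of all loci were called and 27.4% had an unadjusted p under 0.05. These were TAS and IPS non-coding RNAs (5 tested, 1 at an unadjusted p under 0.05), floral identity and meristem (17 tested, 6), tapetum and pollen wall (10 tested, 3), mature pollen (6 tested, 3) and the circadian clock (15 tested, 3). TAS3, the precursor of small RNAs that target auxin response factors, rose in both genotypes, with 44.4 and 40 FPKM in dbr1-2 with RNase R and 8.86 and 6.77 FPKM in dbr1-2 without it, against 38.4 and 45.1 FPKM in col with RNase R and 4.92 and 4.3 FPKM in col without it (interaction -0.63, SE 0.22, adjusted p = 0.126). The median interaction of the 6 mature pollen genes was 0.48, with none called. RALF4 of this list had 0.50, which became -0.14 with a pseudocount of 0.1, and RALF19 had 0.66, which became -0.11 with one of 0.01, so their direction depends on it. These values stand beside the lower pollen marker sums in dbr1-2 given above. LHY of the clock had 4.75 and 4.85 FPKM in dbr1-2 with RNase R and 6.6 and 6.34 FPKM in dbr1-2 without it, against 0.472 and 0.4 FPKM in col with RNase R and 0.457 and 0.492 FPKM in col without it, a gap between the genotypes with an interaction of -0.33 (SE 0.12, adjusted p = 0.154), which turned to 0.17 with median-ratio scaling.

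**Figure D5:**
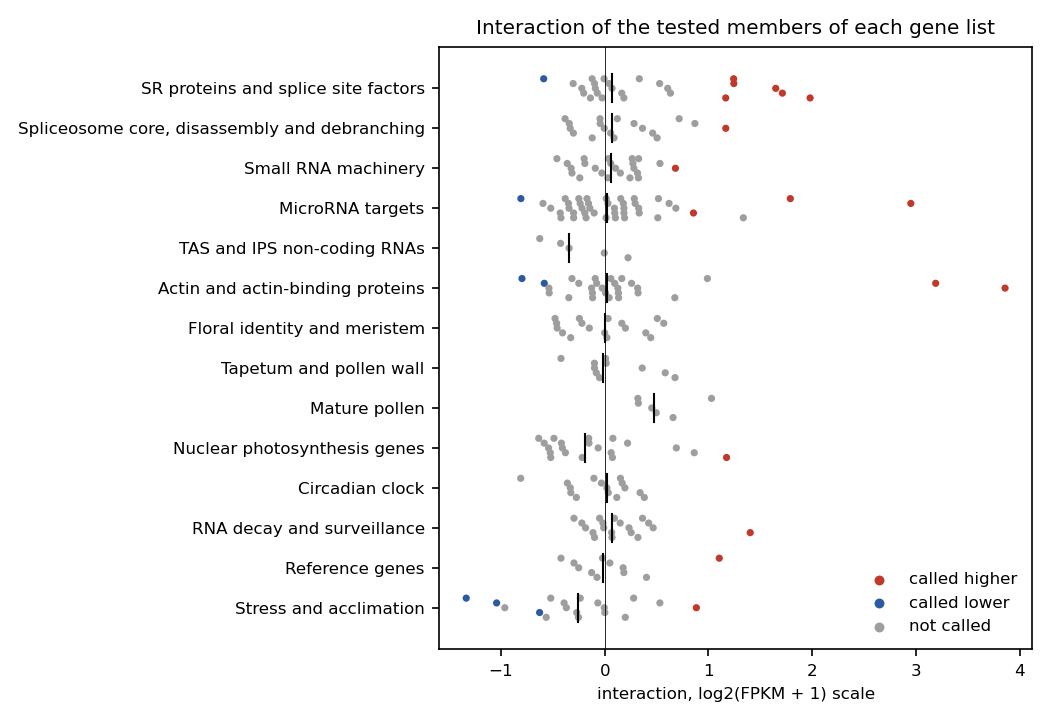
Interaction of every tested member of 14 gene lists, 1 point per gene, with called genes in red (higher) or blue (lower) and the list's median as a black bar, on the log2(FPKM + 1) scale. Medians lie between -0.34 and 0.48, and the calls of SR proteins and splice site factors are mostly to the right of 1.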

How the data were processed

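The authors deposited 1 table of FPKM per locus for 8 stranded RNA-seq libraries; per the submitters' processing notes, the tools were Cuffnorm 2.2.1, Cufflinks 2.2.1 and TopHat2 2.0.13 on TAIR10, with no order or settings. Whether Cuffnorm scaled the libraries, and strand use in counting, are not given in the sources used here. Of the 32232 loci 31296 were matched by name to RefSeq's TAIR10.1 annotation. limma 3.58.1 in R 4.3.3 (lmFit, contrasts, eBayes with a trend) was fitted to log2(FPKM + 1) of 14351 loci. The design had been written for 8 separate libraries with 4 residual degrees of freedom; after comparing replicates, both col libraries with RNase R entered as their mean, with 3. This fit carries no spread between those libraries. The fit was also run on simulated libraries that vary independently, with the same spread in every group. They do not mimic the close col pair or the unequal depth, so they are no check on those. FPKM steps gave read worth, with 199 nt taken off transcript lengths and 93.8% to 99.8% of low values whole within 0.05. The log2(FPKM + 1) scale understates the change of low genes, and can make an interaction where 1 genotype is near 0.

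The text names DBR1; among called loci of at least 5 mean FPKM and 300 nt of exon (interval length for unnamed loci), whose differences between libraries do not overlap between genotypes, the 15 largest higher and 10 largest lower protein-coding genes and 5 other loci each way; and the 4 members of each list with the lowest p. Members called in a list are also counted and some named. Members, lists and the naming rule were chosen with earlier results of these data known. The lists hold SR proteins, spliceosome, small RNA machinery, microRNA targets, TAS and IPS RNAs, actin, floral identity, tapetum, mature pollen, photosynthesis, clock, RNA decay, reference and stress genes. Gene products are as in that annotation. Alternatives were other pseudocounts, filters, scalings, eBayes settings, array weights, a replicate block, tag year, a minimum change, each library left out, and 5 added after seeing the data. Tables and plots used Python 3.11.15, numpy 2.4.6, pandas 2.3.3 and matplotlib 3.10.9.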

Additional observations from a re-analysis of the deposited data

Results flagged for a closer look

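Every value here is a difference between the genotypes in their response to RNase R, tested as the interaction itself with limma (adjusted p under 0.05), and no explanation was weighed. The interaction was higher at 1338 loci and lower at 302.

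Among protein-coding genes the largest positive log2 interactions were 5.17 for AT4G03360, 3.86 for ADF11, 3.37 for AT4G04200, 3.33 for AT5G64160, 3.24 for AT1G23440, 3.19 for ARPC1B, 3.18 for AT4G27620 and 3.17 for both AT4G20320 and AT5G57970. They were followed by 3.15 for AT3G13440, 3.12 for VPS60.2, 3.09 for DER1, 3.08 for AT4G20330, 2.97 for AT1G60990 and 2.95 for TOE2. The negative ones were -1.71 for AT3G63052, -1.66 for AT3G06435, -1.27 for PSBX, -1.20 for AT3G46630, -1.15 for GRP20, -1.14 for AT2G07674, -1.06 for AT1G06200, -1.0 for AT5G04800 and -0.94 for AT1G56220 and AT5G38980 alike.

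Of other loci, psbA had 13.44, which depends on the pseudocount because 6 libraries list it at 0. AT1G25098 had 4.14, and the loci opposite AT4G14720, AT1G70210 and AT4G23270 had 3.88, 3.34 and 3.09. The locus opposite AT3G06435 had -2.17, the unnamed loci on chromosomes 3 and 1 had -1.55 and -1.52, rps18 had -1.02 and ATMG00050 had -0.94.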

How the results depend on the processing

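The count of 1640 loci moved by over 1.5 times under several settings. It was 3909 with no filter on low values, 571 at a mean of at least 5 FPKM, 353 with tag year as a covariate, 173 with quantile normalization and tag year together, and 841 with a minimum log2 difference of 1. Leaving out 1 library at a time gave 423 to 4138. Higher calls made up 36.7% with no filter, 55.6% with quantile normalization, 59.7% with TPM, 59% without organelle and ribosomal RNA loci, 92.1% with tag year, 92.3% with the minimum difference and 56.4% to 93.6% with 1 library left out. A minimum difference can only remove calls, and without a library of dbr1-2 with RNase R the error rests on undigested groups alone. The cause of the other moves was not tested. The number of loci tested changed too: 27445 with no filter, 3281 at the higher mean, 17428 with TPM and 18848 without organelle and ribosomal RNA loci. The replicate block gave 1593 calls, and 1910 with both col libraries counted, but same-numbered libraries do not pair: deviations correlated at 0.303 between dbr1-2 and col without RNase R, whose numbers share a tag year, and at -0.05 to 0.08 elsewhere. Of 2427 values of 88 named loci, 2068 kept direction and call, 259 lost the call, 92 gained it and 8 reversed. Of these, AT5G38980 alone was a called gene (1.17 at a pseudocount of 0.01, adjusted p = 0.21). The others were not called in the reported fit: RALF4 (-0.14 and -1.69 at pseudocounts of 0.1 and 0.01), RALF19 (-0.11) and RVE1 (0.067) at 0.01, LHY (0.17) with median-ratio scaling, and TAS1A with quantile normalization and tag year (-0.096) and with 1 library left out (-0.0075 to 0.46, below 0 without replicate 1 of col with RNase R). Low loci after digestion rest on a few reads, so small differences there were not detectable at this depth.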
